A study of Mus musculus with 104 samples.

Results

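Fast synaptic signalling in the brain is carried by receptors that are themselves ion channels, opened by the transmitter that binds them. Glutamate opens the AMPA, kainate and NMDA receptors, which let cations in and excite the cell. GABA and glycine open chloride channels, which usually inhibit, and acetylcholine opens the nicotinic receptors. Each channel is put together from several subunits, and the choice of subunit sets how quickly it opens, where it sits on the neuron and which drugs act on it. The genes for these subunits were followed through brain regions, mouse strains and ages. They were taken by name, as every gene symbol on the array that starts with Gria, Grik, Grin1, Grin2, Grin3, Gabra, Gabrb, Gabrg, Gabrd, Gabre, Gabrq, Gabrr, Glra, Glrb, Chrna or Chrnb and goes on with digits and letters alone, with Gabra6 left out. This gave 50 genes of the 27962 gene names on the first of the array designs used, and the same 50 of 30177 on the second. There were 4 AMPA, 5 kainate, 7 NMDA, 16 GABA-A, 5 glycine and 13 nicotinic receptor genes, measured by 85 probes. Each gene is given by its brightest probe.

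RNA from brain tissue of mice was hybridised in 1 colour to Agilent whole mouse genome arrays, 1 array for each sample. All mice were of inbred strains, and the labels give no altered allele, diet or drug for any group. Young mice were 2–3 months old and middle-aged mice 12–13 months old. Male BALB hypothalamus had 7 young, 5 middle-aged and 6 aged arrays (20–23 months), and male C57BL/6 hypothalamus 5 young and 5 aged (22–24 months). Male C57BL/6 cerebellum had 4 young, 2 middle-aged and 6 aged arrays (21–23 months). Arrays labelled male BALB cerebellum were 5 young, 6 middle-aged and 4 aged (21–23 months), and those labelled male BALB striatum 3 young, 5 middle-aged and 5 aged (21–23 months). Female BALB frontal cortex had 8 young and 8 aged samples (15–16 months), of which 4 and 4 had scanner values here. Male CBA hypothalamus had 7 young, 5 middle-aged and 8 aged arrays (21–23 months). In whole tissue, fewer cells of a type and less RNA per cell cannot be told apart. The spread between arrays may include technical spread, since the labels do not say that each array is a separate animal.

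The arrays were first checked against genes that mark each region. On the C57BL/6 cerebellum arrays the mean log2 intensity of a list of cerebellar marker genes ran from 11.96 to 13.71, with young array 1 lowest. On the C57BL/6 hypothalamus arrays it was 8.37 to 8.88, except on aged array 1, at 12.25. Arrays labelled BALB cerebellum were high in this list when aged (13.52 to 14.43) and low when young (8.70 to 9.38) or middle-aged (8.57 to 10.89), and the young arrays instead were high in a list of thalamic markers (12.53 to 13.12). Arrays labelled BALB striatum were high in cerebellar markers (13.47 to 14.42), except aged array 3 (8.84), and low in striatal markers (6.86 to 9.16). These groups are therefore called "labelled BALB cerebellum" and "labelled BALB striatum" below, with no array moved. Between 56.1 and 92% of the probes of an array were well above background, and the 75th percentile of signal differed between arrays of a cohort by up to 5.24-fold. The BALB arrays of the labelled cerebellum and striatum shared slides, and every other slide held arrays of 1 cohort, so that slide and region or strain cannot be told apart there. The file headers also give different versions of the scanner software for BALB hypothalamus, for C57BL/6 hypothalamus and for the cerebellum and striatum arrays, which cannot be told apart from strain or region either.

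Most of the subunit genes were detected in every region sampled. Of the 50 genes, 49 were well above background on all 10 C57BL/6 hypothalamus arrays, 41 on all 12 C57BL/6 cerebellum arrays and 30 on all 18 BALB hypothalamus arrays. No gene was below that level on every array of these cohorts. In the frontal cortex 36 genes were well above background on all 8 arrays, and Chrna3, Chrnb4, Gabrq, Glra3 and Glra4 on none. In the CBA hypothalamus 35 were on all 20 arrays, and Chrnb3, Glra3 and Glra4 on none. All levels that follow are log2 intensities after quantile normalisation, and all differences are on that log2 scale with their standard error (SE). A gene was called when its log odds of differing (B) in limma were above 0, and adjusted p-values are limma's with Benjamini-Hochberg adjustment over all genes tested.

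Receptor genes differed widely between cerebellum and hypothalamus, more of them lower in cerebellum than higher. In young C57BL/6 mice, 8 of the 50 genes were called higher in cerebellum than in hypothalamus and 20 lower, beside 17% of all 23499 genes tested called higher and 20.9% lower. The median difference of the 50 was -0.50, against -0.11 for all genes. In aged C57BL/6 mice 6 were called higher and 19 lower, beside 19.2% and 22.6% of all genes, with a median of -0.65. By family, the young mice gave 1 higher and 1 lower of 4 AMPA genes, 1 and 4 of 5 kainate genes, 3 and 2 of 7 NMDA genes, 2 and 9 of 16 GABA-A genes, 1 and 1 of 5 glycine genes, and 0 and 3 of 13 nicotinic genes. Lists of other cell types moved with the same contrast. Choroid plexus markers had a mean level of 7.53 to 11.86 on the cerebellum arrays and 7.49 to 8.09 on the hypothalamus arrays, neuronal markers 15.2 to 15.3 against 14.6 to 15.0, and astrocyte markers 13.9 to 14.3 against 12.7 to 13.1. Red blood cell markers were at 14.82 to 15.50 on young cerebellum and 12.92 to 13.42 on young hypothalamus arrays, and at 15.29 to 16.05 and 12.85 to 15.18 on aged ones. The part of these lists in the result was not tested. Without cerebellum young array 1 the count in young mice was 26 (8 higher, 18 lower), and without hypothalamus aged array 1 the count in aged mice was 24 (6 higher, 18 lower). When each cohort was normalised on its own, the median of all genes moved to -0.30 in young and -0.28 in aged mice, and the counts were 6 higher and 21 lower, and 5 higher and 21 lower.

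**Figure D1:**
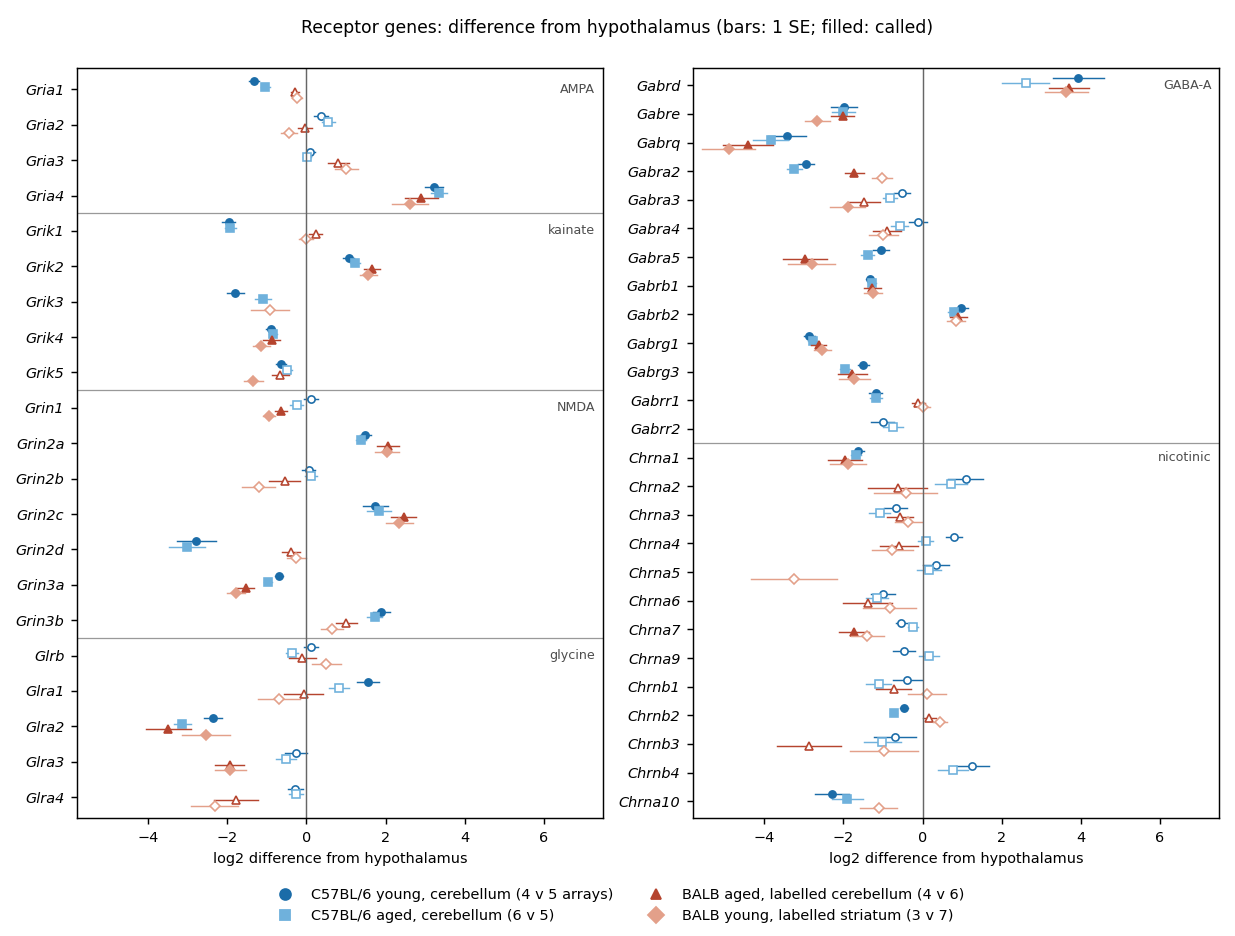
Difference in log2 intensity, with SE, of the receptor genes described here between arrays carrying cerebellar markers and hypothalamus arrays, by receptor family; the symbol gives the comparison, and filled symbols are called genes. Gria4 lies furthest to the higher side among the glutamate receptor genes, at 3.22 and 3.35 in C57BL/6 mice, and Gabrg1 and Gabrq lie well to the lower side in every comparison shown.

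The same contrast could be drawn in 2 further sets of arrays that carried cerebellar markers, whatever their label. Aged arrays labelled BALB cerebellum against aged BALB hypothalamus gave 7 genes higher and 14 lower of 44 tested, beside 15.6% and 18.7% of all genes. Young arrays labelled BALB striatum against young BALB hypothalamus gave 6 higher and 14 lower of 47, beside 15.8% and 15.3%. The groups set against each other in the 4 comparisons (C57BL/6 young, C57BL/6 aged and these 2) held no array in common. The C57BL/6 comparisons shared a joint normalisation, fit and estimate of spread, as did the BALB ones, so the 4 are not independent. Of the 50 genes, 14 were called the same way in all 4, 19 in 1 to 3, 17 in none, and 0 were called in opposite directions. Of all 20006 genes tested in all 4 comparisons, 6.29% were called higher in each and 8.45% lower, beside 4 and 10 of the 44 receptor genes so tested. Gria4, Grik2, Grin2a and Grin2c were higher in all 4, and Gabra5, Gabrb1, Gabre, Gabrg1, Gabrg3, Gabrq, Glra2, Grik4, Grin3a and Chrna1 were lower in all 4. The call of Chrna1, the muscle-type alpha subunit, was lost in all 4 comparisons under 75th percentile scaling, with differences of -1.34, -1.28, -1.29 and -1.75. When each cohort was normalised on its own, the median of all genes in the BALB comparisons moved to 0.62 and 0.72, and the receptor counts became 13 higher and 6 lower, and 12 higher and 3 lower. Not all of the 10 genes lower in all 4 comparisons thus kept that call in BALB mice. With 75th percentile scaling the aged BALB comparison gave 8 higher and 9 lower.

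The promoter sequences of a pair of genes higher and a pair lower in all 4 comparisons are shown because they differ in base composition. Each is the 150 bases before the annotated start, from RefSeq on GRCm38.p6, 5′ to 3′, with CpG dinucleotides in capitals.
Gria4 (chr9:4796235-4796384, minus strand): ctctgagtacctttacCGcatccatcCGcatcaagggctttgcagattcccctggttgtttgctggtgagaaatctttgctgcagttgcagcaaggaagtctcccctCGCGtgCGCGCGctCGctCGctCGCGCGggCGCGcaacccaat
Grin2c (chr11:115267244-115267393, minus strand): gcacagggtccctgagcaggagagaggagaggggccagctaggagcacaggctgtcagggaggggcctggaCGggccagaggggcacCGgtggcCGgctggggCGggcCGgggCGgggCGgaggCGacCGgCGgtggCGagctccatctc
Gabrg1 (chr5:70842618-70842767, minus strand): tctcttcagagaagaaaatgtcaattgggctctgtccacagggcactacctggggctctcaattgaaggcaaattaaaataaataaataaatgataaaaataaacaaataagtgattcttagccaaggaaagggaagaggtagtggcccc
Gabrq (chrX:72825028-72825177, plus strand): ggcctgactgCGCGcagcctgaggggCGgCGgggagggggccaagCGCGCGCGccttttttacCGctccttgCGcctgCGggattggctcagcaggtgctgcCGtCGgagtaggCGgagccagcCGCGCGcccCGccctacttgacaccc
The Gria4 stretch held 14 CpG dinucleotides at 59.3% GC, the Grin2c stretch 11 at 76.0%, the Gabrg1 stretch 0 at 38.7% and the Gabrq stretch 18 at 73.3%. The stretch of Gabrg1 held the fewest CpG of these 4 and that of Gabrq the most, and both genes were lower in cerebellum. Promoters of 36 receptor genes were matched. Motifs were sought on either strand of the whole promoter sequence, which is longer than the 150 bases shown, so a match may lie outside those. The TATA box motif TATAAA was in 5 of the 36 (13.9%: Chrnb1, Gabra3, Gabrb2, Glra2 and Grin3b) and in 14.2% of 27025 promoters. The E-box CACGTG was in 2 (5.56%: Chrna7 and Grin1) and 7.24%. The cAMP response element TGACGTCA was in 0 of the 36 and 1.88% of all, and TTCAGCACC, the left part of the RE1 element bound by the neuronal repressor REST, in 0 and 0.359%.

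Among the AMPA receptor genes, Gria4, which encodes a subunit with fast kinetics, was higher in cerebellum than in hypothalamus. Its levels on the young C57BL/6 cerebellum arrays were 12.40, 12.64, 13.33 and 13.29, and on the young hypothalamus arrays 10.04, 9.99, 9.17, 9.60 and 9.68. Aged cerebellum ran from 12.71 to 13.59 with a median of 13.29, and aged hypothalamus was at 10.43, 9.99, 9.85, 9.58 and 9.58. Every cerebellum array was above every hypothalamus array. The difference was 3.22 ± 0.23 in young (adjusted p = 6.92e-10) and 3.35 ± 0.21 in aged mice (adjusted p = 7.31e-11). In BALB mice it was 2.90 ± 0.42 for aged arrays labelled cerebellum (15.23, 12.54, 13.06 and 12.68) and 2.61 ± 0.45 for young arrays labelled striatum (13.07, 13.35 and 12.84), against hypothalamus ranges of 9.61 to 11.02 and 10.25 to 10.91. The array labelled striatum whose cerebellar markers were low, aged 3, read 10.95. Of the 4 probes for Gria4, the brightest and another pair were called higher in young C57BL/6 cerebellum (3.22, 2.19 and 1.50), and the remaining probe differed by 0.24 ± 0.24 and was not called.

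Gria1 and Gria2 show how far a result for a gene can rest on its probe. Gria1, the AMPA subunit most studied in synaptic plasticity, was called lower in C57BL/6 cerebellum at its brightest probe (-1.32 in young and -1.04 in aged), while its other probe differed by 0.58 ± 0.15, and the mean over its probes was -0.37 and -0.29, not called. In BALB mice Gria1 was not called at -0.29 and -0.23. Gria2, the subunit that makes AMPA receptors nearly impermeable to calcium, was called at its brightest probe in none of the 4 comparisons (0.37, 0.56, -0.04 and -0.44), yet its other probes were called in opposite directions. The first 30 bases of each Gria2 probe (mm7, minus strand, genome annotation of that build not used here) are shown in order along the strand, because these probes gave opposite results.
Gria2 probe at chr3:80810718-80810777: tgaatataagcatttcaagctttctaagtg
Gria2 brightest probe at chr3:80793353-80793412: tggcatgggaatgaatgtcagtgtgactga
Gria2 probe at chr3:80790323-80790382: taactacacaatcctatttatatgtacttt
At the first of these, cerebellum was higher by 2.48 ± 0.19 in young C57BL/6 mice, 2.95 in aged, 3.98 in aged arrays labelled BALB cerebellum and 3.90 in young arrays labelled BALB striatum, all called. At the last, cerebellum differed by -2.39 ± 0.47 in young and -2.55 ± 0.42 in aged C57BL/6 mice, both called, and by -1.51 and -0.33 in the BALB comparisons, not called. Gria2 was the 1 gene with probes called in both directions in this contrast, among 24 genes with several tested probes. Gria3 was called in none of the 4 comparisons.

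All 5 kainate receptor genes were called in young C57BL/6 mice, 1 of them higher. Grik2, a low-affinity pore-forming subunit, was higher in cerebellum by 1.06 and 1.23 in young and aged C57BL/6 mice and by 1.66 and 1.56 in the BALB comparisons, at its brightest probe, while its other probe differed by -0.19 ± 0.20 in the young C57BL/6 mice. Grik4, a high-affinity subunit that needs a low-affinity partner, was lower by 0.91, 0.84, 0.88 and 1.14 in the same order, as a level in hypothalamus above that in cerebellum. The aged BALB call of Grik4 was lost when any of the labelled cerebellum aged arrays 2, 3 or 4 or hypothalamus aged arrays 3, 4 or 5 was left out (differences of -1.20 to -0.73 over all arrays left out). Grik1 was lower in C57BL/6 cerebellum by 1.96 and 1.92 but differed by 0.23 and -0.01 in the BALB comparisons, neither called. Grik3 was lower by 1.80 and 1.10 in C57BL/6 mice, and 75th percentile scaling ended those calls. Grik5 was lower by 0.65 in young C57BL/6 mice and by 1.34 in young arrays labelled BALB striatum.

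The NMDA receptor genes split by subunit type. Grin1, the obligatory subunit, was not called in C57BL/6 mice and was lower by 0.64 and 0.95 in the BALB comparisons. With each cohort normalised on its own, the Grin1 groups overlapped in both. They ran from 9.44 to 10.03 against 9.27 to 10.04 in hypothalamus in aged arrays, and from 9.61 to 9.68 against 9.62 to 10.07 in young ones. Grin2c encodes a subunit of mature cerebellar granule cells. Its young C57BL/6 cerebellum arrays read 13.57, 14.48, 14.56 and 14.56, and its hypothalamus arrays 12.80, 12.69, 12.53, 12.32 and 12.42, with no overlap and a difference of 1.74 ± 0.32 (adjusted p = 0.000109). That call was lost without cerebellum young array 3 or 4, with a difference of 1.65 without either. In aged mice the difference was 1.83 ± 0.29 (adjusted p = 1.75e-05). There the groups overlapped, since hypothalamus aged array 1, the array high in cerebellar markers, read 14.59 beside 12.27 to 12.80 on the other 4, and the cerebellum arrays ran from 14.56 to 15.12. The BALB differences were 2.46 ± 0.32 and 2.34 ± 0.34. Grin2a, the subunit that becomes common as synapses mature, read 7.44, 7.21, 7.49 and 7.44 in young cerebellum and 5.50 to 6.10 in young hypothalamus, a difference of 1.49 ± 0.14 (adjusted p = 3.15e-08), and was higher by 1.38, 2.06 and 2.03 in the other comparisons. Grin2b, the subunit typical of the young forebrain, was called in none of the 4. Grin2d, a subunit of the brainstem and interneurons, read 9.47, 9.92, 9.56 and 9.71 in young C57BL/6 cerebellum and 11.60, 10.80, 12.78, 13.80 and 13.28 in hypothalamus, where the arrays of a group lay 3 log2 units apart. It was lower in cerebellum by 2.79 ± 0.50 in young (adjusted p = 6.68e-05) and by 3.02 ± 0.45 in aged mice, and differed by -0.39 and -0.26 in the BALB comparisons, not called. Grin3a was lower by 0.70, 0.98, 1.54 and 1.78, and Grin3b was higher by 1.89 and 1.72 in C57BL/6 mice and differed by 1.01 and 0.65 in the BALB comparisons, not called.

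GABA-A receptors are pentamers, most often of alpha, beta and gamma subunits, with delta in place of gamma outside synapses. Gabrg1, a gamma subunit found in a few brain areas, was lower in cerebellum with little spread between arrays. It read 11.19, 10.80, 10.66 and 10.91 on young C57BL/6 cerebellum arrays and 13.70, 13.85, 13.64, 13.61 and 13.97 on young hypothalamus arrays, a difference of -2.86 ± 0.13 (adjusted p = 2.12e-12). In aged mice it read 10.53 to 11.10 against 13.31 to 13.72 (-2.77 ± 0.12), and the BALB differences were -2.63 ± 0.20 and -2.53 ± 0.21. Groups did not overlap in any of these. Gabrq, the theta subunit, which neighbours Gabre and Gabra3 on the X chromosome, read 5.40, 3.42, 3.55 and 4.08 in young cerebellum, where it was well above background on 1 of 4 arrays, and 7.40, 7.74, 7.54, 7.69 and 7.34 in hypothalamus. Its differences were -3.43 ± 0.48 (adjusted p = 4.46e-06), -3.84 ± 0.44, -4.41 ± 0.63 and -4.90 ± 0.67. The BALB differences rested on low values that varied between arrays. Normalised within the cohort, Gabrq read 2.38, 2.14, 3.94 and 6.36 on aged arrays labelled cerebellum. On young arrays labelled striatum it read 2.44, 2.06 and 5.36. Gabra2, the alpha subunit linked to the anxiolytic action of benzodiazepines, read 8.61, 7.32, 7.95 and 7.69 in young cerebellum against 10.54 to 11.11 in hypothalamus, lower by 2.96 ± 0.21 (adjusted p = 4.44e-10) and by 3.24 ± 0.19 in aged mice. In BALB mice it was lower by 1.73 in aged arrays labelled cerebellum and differed by -1.02 in young arrays labelled striatum, not called.

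Gabrd, the delta subunit of tonic inhibition in granule cells and thalamus, ran the other way and varied widely. It read 12.93, 15.06, 14.62 and 14.89 in young C57BL/6 cerebellum and 11.59, 11.37, 11.82, 9.06 and 8.37 in young hypothalamus, higher by 3.93 ± 0.65 (adjusted p = 2.72e-05). The aged hypothalamus arrays read 14.05, 12.56, 11.04, 12.02 and 12.47 against 14.93 to 15.11 in aged cerebellum. The highest of these hypothalamus values was that of aged array 1, the array high in cerebellar markers. The aged difference, 2.60 ± 0.58, had an adjusted p of 0.000601 but was not called by B, and the BALB differences were 3.71 ± 0.51 and 3.63 ± 0.54, both called. Gabrb2 was higher by 0.97, 0.79 and 0.90 and differed by 0.84 in young arrays labelled striatum, not called. Gabra5, an extrasynaptic alpha subunit, was lower by 1.05, 1.39, 2.97 and 2.81, the last of which was lost without labelled striatum young array 1 (-2.16) or 2 (-2.67). Gabre was lower by 2.00, 2.00, 2.02 and 2.66, Gabrg3 by 1.50, 1.96, 1.78 and 1.72, and Gabrb1 by 1.26 to 1.33. Gabrr1, a rho subunit known from retina, was lower by 1.19 and 1.17 in C57BL/6 mice and was not called in BALB mice. Gabra3 was lower by 1.90 in young arrays labelled striatum.

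Many GABA-A genes lie next to each other in the genome. By probe position on mm7, 13 of the 16 lay in 4 runs of 3 or more with under 2 Mb between neighbours. On chromosome 5 the run of Gabrg1, Gabra2, Gabra4 and Gabrb1 (1.38 Mb) had 3 of 4 genes called lower in young C57BL/6 cerebellum, and Gabra4 was not called. On X, Gabre and Gabrq were called lower and Gabra3, between them, was not (0.58 Mb).

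Among the glycine receptor genes, Glra2, the alpha subunit typical of the immature brain, read 8.84, 8.03, 8.06 and 8.35 in young C57BL/6 cerebellum and 10.36, 10.73, 10.59, 11.00 and 10.69 in hypothalamus, lower by 2.36 ± 0.23 (adjusted p = 5.41e-08). On the 5 aged cerebellum arrays with a value it was lower by 3.14 ± 0.22, and the BALB differences were -3.49 and -2.54 ± 0.60. The last of these was lost when any of 8 arrays was left out (labelled striatum young 1 or 2, or hypothalamus young 1, 2, 3, 5, 6 or 7), within -3.09 to -2.15. Glra1, the adult spinal and brainstem subunit, was higher by 1.56 in young C57BL/6 cerebellum. It was called in none of the other comparisons, and in a BALB comparison it differed by -0.70. Glra3 was lower by 1.94 in aged arrays labelled BALB cerebellum and by 1.93 in young arrays labelled BALB striatum, and the latter call was lost without labelled striatum young array 1 or 2, within -2.25 to -1.69.

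Of the 13 nicotinic genes, Chrna1, Chrna10 and Chrnb2 were called in young C57BL/6 mice, all lower in cerebellum. Chrna10, known best from the hair cells of the inner ear, was not well above background on any of the 4 young cerebellum arrays. It differed there from hypothalamus by -2.28 (adjusted p = 0.000111). With cerebellum values under the array's lowest well-above-background signal raised to that signal, the means lay 4.74-fold apart, a figure without sampling error. That call was lost without cerebellum young array 1 (-2.08) or 2 (-2.14). Chrnb2, the common beta subunit of brain nicotinic receptors, was lower by 0.47 in young mice and by 0.73 in aged mice. It was not called in the BALB comparisons, where a difference reached 0.43. The young call had B of 0.3 and was lost without cerebellum young array 1 or 3 or hypothalamus young array 2, 3, 4 or 5, within -0.51 to -0.37. Chrna7, which forms homomeric receptors, was lower by 1.74 in aged arrays labelled BALB cerebellum, a call lost without labelled cerebellum aged array 2 or 3, within -2.02 to -1.51.

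Genes that work with these receptors were counted in the same way, beside 37.9% of all genes called in either direction in young C57BL/6 mice and 41.8% in aged mice. Of 15 metabotropic receptor genes, 13 were tested in young C57BL/6 mice, with 2 higher in cerebellum and 4 lower: Grm4, a presynaptic receptor of granule cells, was higher by 3.05 and Grm5 lower by 2.07. Of 30 auxiliary subunits, chaperones and anchors on the array, 6 were higher and 11 lower, among them Shisa7 (-2.19) and Grip2 (-1.87). Of 22 genes of transmitter synthesis and transport, 6 were higher and 1 lower, with the neuronal glycine transporter Slc6a5 higher by 8.84 and the vesicular glutamate transporter Slc17a7 by 6.43. In aged mice the counts were 2 and 5 of 13, 8 and 13 of 30, and 5 and 2 of 22.

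Young arrays labelled BALB cerebellum were high in thalamic markers and low in cerebellar ones. Against young BALB hypothalamus, 7 of 48 receptor genes were called higher and 7 lower, beside 13.5% and 12.4% of all genes, with a median of -0.03. When each cohort was normalised on its own the counts were 16 higher and 3 lower, and the median of all genes was 0.71. Grin2b read 12.45, 12.06, 12.52, 12.68 and 12.04 on these arrays and had a median of 10.24 in hypothalamus, higher by 2.09. Grin2a was higher by 3.15, Gabra4, which pairs with delta in the thalamus, by 1.39 and Gabrd by 2.43 ± 0.46. Gabrg1 was lower by 1.67 ± 0.18 and Gabrq by 4.01 ± 0.57. Gabre was lower by 3.14 and Gria1 by 0.60, and Gabrb2 and Grik2 were called higher, the latter by 0.98. Gria4 differed by 1.29 and Grin2c by 0.47, neither called. The other 4 calls were lost with 1 array left out: Chrna4 at 1.89 (labelled cerebellum young 1, 2 or 5 or hypothalamus young 1, within 1.83 to 1.99), Glra4 at -2.27 (labelled cerebellum young 2 or hypothalamus young 5, within -2.48 to -2.06), Grik4 at -0.81 (labelled cerebellum young 1, 2, 3 or 5 or hypothalamus young 1, 3 or 4, within -0.89 to -0.74) and Grin1 at -0.60 (labelled cerebellum young 1 or 5 or hypothalamus young 2, 3 or 7, within -0.65 to -0.55). Labelled striatum aged array 3, low in cerebellar and high in thalamic markers (13.0), read 12.22 for Grin2b, where the other labelled striatum arrays read 8.49 to 10.48.

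With age, 0 receptor genes were called in 6 of the 7 cohorts. In C57BL/6 cerebellum 0 of 48 tested genes were called between young and aged mice, beside 0.37% of all genes, and 7 had an unadjusted p under 0.05, beside 7.06%. In BALB hypothalamus 0 of 46 were called, beside 0.906%, and 5 had such a p, beside 9.41%. In C57BL/6 hypothalamus the counts were 0 and 6 of 50, beside 0.124% and 4.96%. In frontal cortex they were 0 and 0 of 41, beside 0% and 5.27%, and in arrays labelled BALB striatum 0 and 0 of 48, beside 0% and 0.559%. In CBA hypothalamus they were 0 and 3 of 37, beside 0.405% and 6.28%. Median differences of the receptor genes were -0.10, -0.05, 0.00, -0.07, 0.07 and -0.03 in that order. Those of all genes were -0.01, 0.02, -0.02, -0.02, -0.01 and -0.01. Regardless of sign, the median receptor differences were larger than those of all genes. They were 0.21, 0.13, 0.18, 0.28, 0.20 and 0.12, beside 0.13, 0.11, 0.10, 0.25, 0.11 and 0.09, which was not tested. Receptor genes that were lower with age, called or not, numbered 33, 29, 25, 22, 18 and 20. In the cohorts of hypothalamus and of C57BL/6 cerebellum most 95% intervals of the age difference lay within a factor of 2 either way: 39 of 48 in C57BL/6 cerebellum, 36 of 46 in BALB, 41 of 50 in C57BL/6 and 35 of 37 in CBA hypothalamus. In frontal cortex 21 of 41 did, and in arrays labelled striatum 23 of 48, so that larger changes were not excluded for the rest.

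**Figure D2:**
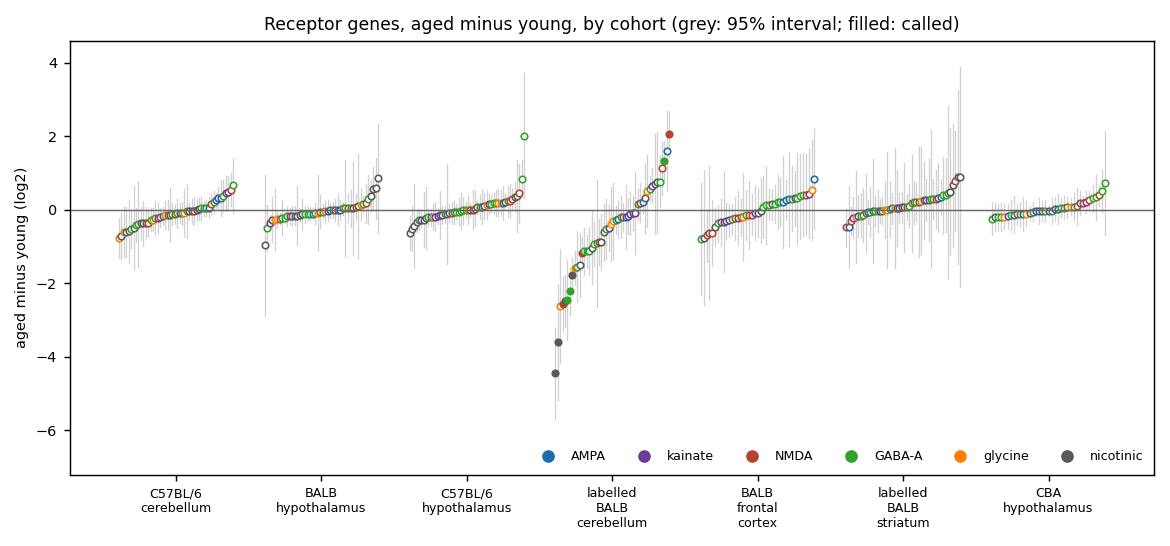
Aged minus young difference in log2 intensity for each receptor gene tested, by cohort, in order of size and coloured by receptor family, with the 95% interval in grey and filled points for called genes. Most points lie near 0 in 6 cohorts, and called genes appear in arrays labelled BALB cerebellum, where 2 were higher and 10 lower.

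The receptor genes furthest from 0 in each cohort were these. In C57BL/6 cerebellum Glra2 read 8.73, 7.95, 7.99 and 8.26 in young mice and 6.80 to 7.95 on 5 aged arrays, a difference of -0.76 ± 0.25 (95% interval -1.30 to -0.22, adjusted p = 0.579) that did not pass the test, as Chrna2 at -0.72 (adjusted p = 0.662) and Gabrd at 0.67 (adjusted p = 0.726) did not. In the deposited table Glra2 turned in sign (0.27), and without cerebellum young array 1 Gabrd differed by 0.18. In BALB hypothalamus the largest were Chrna5 at -0.97 (-2.87 to 0.94), Chrnb3 at 0.86 and Chrna1 at 0.59. In C57BL/6 hypothalamus Gabrd read 11.79, 11.56, 12.02, 9.20 and 8.47 in young and 14.25, 12.77, 11.23, 12.22 and 12.67 in aged mice, a difference of 2.02 ± 0.77 (0.33 to 3.71, adjusted p = 0.997). The highest aged value was that of array 1, the array high in cerebellar markers, and the part of those markers was not tested. Gabra4 read 11.84, 11.07, 11.61, 10.98 and 11.16 in young and 12.18, 12.60, 11.48, 12.36 and 12.29 in aged mice, a difference of 0.85 ± 0.23 (0.35 to 1.35, adjusted p = 0.65), and was called at 1.03 without aged array 3. In frontal cortex the largest were Gria2 at 0.83, Gabre at -0.79 and Chrna10 at -0.76 (adjusted p = 0.841 for the last). With each array left out they ran from 0.45 to 1.31, -1.39 to -0.44 and -1.55 to -0.26, with the lowest Gria2 value without aged array 8 and the lowest Gabre and Chrna10 values without aged array 5, and Chrna10 turned in sign in the deposited table (0.0574). In CBA hypothalamus they were Gabrd at 0.72 (-0.70 to 2.14), Gabra3 at 0.51 (0.22 without aged array 8) and Grin3b at 0.39 (0.10 to 0.68, adjusted p = 0.553). In arrays labelled striatum they were Chrna5 and Chrnb3 at 0.90 and Grin2b at 0.79, all with an adjusted p of 1. Aged array 3, the array with thalamic markers, was high in these, and without it Chrnb3 differed by 0.23 and Grin2b by 0.23. With slide as a fixed block all 3 turned in sign (-0.0127, -0.9667 and -0.7428).

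At middle age no receptor gene was called either. Against young mice, 0 of 47 receptor genes were called in BALB hypothalamus, beside 0.219% of all genes, and 4 had an unadjusted p under 0.05, beside 11.7%. In CBA hypothalamus the counts were 0 and 1 of 38, beside 0% and 2.81%, and in arrays labelled BALB striatum 0 and 0 of 49, beside 0% and 2.25%. In arrays labelled BALB cerebellum they were 0 and 0 of 49, beside 0% and 0.65%. In C57BL/6 cerebellum, with 2 middle-aged arrays, they were 0 and 4 of 48, beside 0.0165% and 8.53%, with 2 called when middle-aged array 1 was left out, a fit in which the lone middle-aged array is assumed to vary like the other groups, and the furthest were Chrnb3 at -1.92 and Chrna2 at -1.42. The genes of metabotropic receptors, auxiliary proteins and transmitter transport also gave 0 calls in each of these comparisons, and in the aged comparisons other than labelled cerebellum.

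In arrays labelled BALB cerebellum 12 of 48 receptor genes were called between aged and young, 2 higher and 10 lower, beside 2.76% and 4.02% of all genes, with a median of -0.35. With slide as a fixed block 6 were called. Region markers moved with the same contrast, from thalamic in the young to cerebellar in the aged arrays, so that age and the region of the tissue cannot be told apart in it. Chrnb3, a nicotinic subunit of the midbrain and habenula, read 8.65, 8.45, 8.15, 8.15 and 8.65 in young and 1.81, 3.58, 4.85 and 5.62 in aged arrays, where it was well above background on 2 of 4, a difference of -4.45 ± 0.57 (adjusted p = 0.000157). Grin2b read 12.24 to 12.88 in young and 10.99, 9.02, 10.62 and 9.30 in aged arrays (-2.57 ± 0.34, adjusted p = 0.000203), and Gabra4 read 14.07 to 14.49 and 13.42, 11.48, 11.83 and 11.74 (-2.21 ± 0.31). The middle-aged arrays, whose markers were those of the young, read 8.06 to 8.96 for Chrnb3 on 5 arrays and 7.32 on the sixth, and 12.25 to 12.95 for Grin2b. Grin2c rose from 12.86 to 13.26 in young arrays to 15.43, 15.50, 15.58 and 13.79 in aged ones (2.06 ± 0.29, adjusted p = 0.000344), and Gabrd by 1.33 ± 0.25. Chrna4 was lower by 2.49 ± 0.33, Chrna3 by 1.77 ± 0.22, Glra3 by 1.58, Grin3a by 1.16 and Gabrg1 by 1.13. The calls of Chrna5 (-3.61 ± 0.73, groups overlapping) and Gabra5 (-2.45 ± 0.51) were lost when any of several arrays was left out: young 1, 2, 3 or 5 or aged 1 or 2, and for Chrna5 also aged 3, within -4.53 to -3.13 and -2.99 to -1.88. On the aged arrays Chrna5 read 1.82, 1.78, 3.19 and 5.90. Among the partner genes, 1 metabotropic receptor gene was higher and 4 lower of 13, 0 and 4 of 30 auxiliary genes, and 2 and 3 of 22 transport genes.

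Whether age differences varied with region or strain was tested as an interaction. In C57BL/6 mice 0 of 50 receptor genes were called for a difference between the age effects in cerebellum and hypothalamus, beside 0.0242% of all genes, and 4 had an unadjusted p under 0.05, beside 4.39%. Between BALB and C57BL/6 hypothalamus 0 of 50 were called, beside 0%, and 4 had such a p, beside 5.05%.

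Some receptor genes differed between the hypothalamus arrays of the strains. In young mice 5 of 50 were called higher in BALB than in C57BL/6 and 4 lower, beside 11.7% and 13.9% of all genes, and in aged mice 3 were higher and 7 lower, beside 12.7% and 12.5%. This was 18% and 20% of the receptor genes, beside 25.6% and 25.2% of all genes called in either direction, a difference that was not tested. The strains lay on separate slides, so strain and slide cannot be told apart. When each cohort was normalised on its own the median of all genes moved to -0.78 in young and -0.75 in aged mice, and the counts became 2 higher and 17 lower, and 1 higher and 18 lower. With 75th percentile scaling they were 6 and 3, and 4 and 5, with a median of all genes of -0.11 in aged mice.

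Gabra2 and Grin2d differed between the strains at both ages. Gabra2 read 11.41 to 12.12 (median 11.83) in young BALB mice and 10.55, 10.62, 10.28, 10.72 and 10.90 in young C57BL/6 mice, higher in BALB by 1.22 ± 0.11 (adjusted p = 1.89e-09), and by 1.49 ± 0.12 in aged mice (11.70 to 11.98 against 10.30, 10.41, 10.56, 10.04 and 10.34, adjusted p = 1.09e-10). The groups did not overlap at either age in the joint normalisation. With each cohort normalised on its own, Gabra2 ran from 11.20 to 11.92 in young BALB and 10.71 to 11.30 in young C57BL/6 mice, which overlap. In aged mice it then ran from 11.50 to 11.78 and from 10.49 to 10.99, with no overlap. All 3 Gabra2 probes were called in the same direction, and their first 30 bases (mm7, minus strand) are shown for that reason.
Gabra2 probe at chr5:70333336-70333395: acaggcagaaaacatcccgtgccaaaagag
Gabra2 probe at chr5:70331375-70331434: aaccttcctcacgaaaatcaaaagtaatcc
Gabra2 brightest probe at chr5:70330565-70330624: taatgacattatgataagttagacgtccca
The first of these was higher in BALB by 2.32 in young and 2.10 in aged mice, and the second by 0.97 and 1.40. Grin2d read 8.60 to 9.65 (median 9.17) in young BALB mice and 11.42, 10.56, 12.65, 13.71 and 13.18 in C57BL/6 mice, lower by 3.15 ± 0.43 (adjusted p = 1.04e-06), and by 3.08 ± 0.44 in aged mice (8.37 to 9.62 against 11.70, 12.56, 10.63, 13.20 and 12.83). No further probe for Grin2d was on the array. Its strain and region differences both rested on the C57BL/6 hypothalamus arrays, which varied widely at each age.

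**Figure D3:**
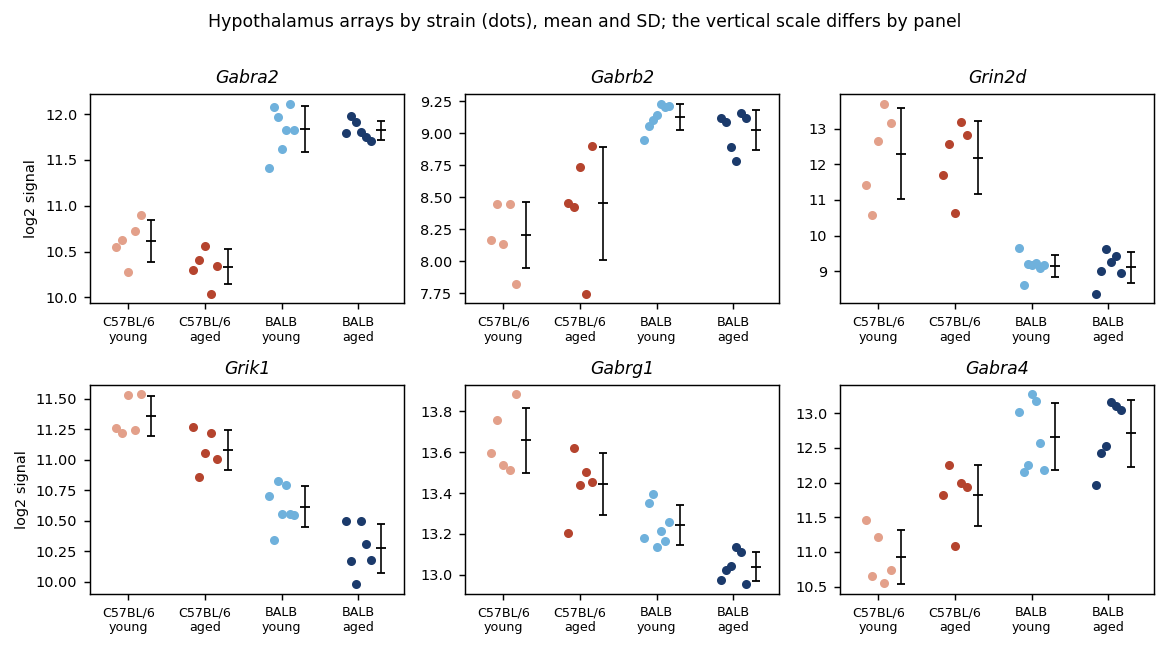
Log2 intensity of receptor genes on each BALB and C57BL/6 hypothalamus array, young and aged, each point an array, with the mean and SD of the group beside it. In the joint normalisation shown, Gabra2 is higher and Grin2d lower on every BALB array than on any C57BL/6 array of the same age.

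Other strain differences were smaller or rested on the probe. Gabra4 was higher in young BALB mice by 1.74 ± 0.24 (adjusted p = 1.81e-06), at 12.15 to 13.28 against 11.46, 10.66, 11.22, 10.55 and 10.74. Gabrb2 was higher in young BALB mice by 0.92 ± 0.14 in the joint normalisation. With each cohort normalised on its own, the young Gabrb2 groups overlapped. BALB arrays then ran from 8.66 to 8.96, and C57BL/6 arrays from 8.42 to above 8.99. The thalamic list had a median of 11.28 (10.58 to 12.12) on the young BALB arrays and 10.61 (10.21 to 11.35) on the young C57BL/6 arrays, and its part in the Gabra4 difference was not tested. Gabra3 was higher by 0.62 ± 0.11 in young and 0.57 ± 0.12 in aged mice, and within each cohort's own normalisation its sign turned (-0.0176 and -0.0562). The aged call of Gabra3 was lost without BALB aged array 3 or 4 or C57BL/6 aged array 4, within 0.52 to 0.66. Gabrg1 was lower in BALB by 0.42 ± 0.08 and 0.40 ± 0.08. Grik1 was lower by 0.74 ± 0.10 and 0.81 ± 0.10 at its brightest probe and higher by 1.02 ± 0.14 and 0.79 ± 0.15 at its other probe, all called. Gria1 was lower by 0.61 ± 0.09 and 0.48 ± 0.09 at its brightest probe and higher by 0.77 ± 0.13 at its other in young mice, and 75th percentile scaling ended both calls at the brightest probe. Gria4 was called higher in young BALB mice at 0.97 ± 0.22 with B of 0.11, a call lost without any of the BALB young arrays or C57BL/6 young array 3, 4 or 5 (0.82 to 1.06), and its other probes ran from -3.89 to 0.47. Gria1, Gria4 and Grik1 were the 3 genes of 21 with probes called in both directions in young mice. In aged mice Chrna7 was higher in BALB by 1.25 ± 0.20 (adjusted p = 9.86e-06), a call that 75th percentile scaling ended at 0.62. Chrnb2 was lower by 0.51 ± 0.09 and Grin3a by 0.39 ± 0.07. Chrna4 was lower by 0.95 ± 0.21, with groups overlapping, and lost its call without any of BALB aged arrays 2 to 5 or C57BL/6 aged arrays 2 to 5, within -1.09 to -0.83.

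Among the partner genes, beside 25.6% of all genes called in young and 25.2% in aged mice, there were 4 metabotropic genes higher in young BALB mice and 2 lower of 13, 8 and 4 of 30 auxiliary genes, and 2 and 1 of 21 transport genes. Neto1, an auxiliary subunit of kainate receptors, was higher by 1.39 in young and 1.50 in aged mice, and Cacng8, an auxiliary subunit of AMPA receptors, by 1.68 in young mice. In aged mice the counts were 3 and 2, 4 and 1, and 0 and 0.

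Gabrd and Gabra4, whose subunits form extrasynaptic receptors in thalamus, varied among hypothalamus arrays of the same strain and age. Gabrd ran from 9.70 to 12.94 in young and 9.51 to 12.97 in aged BALB mice, from 8.47 to 12.02 in young and 11.23 to 14.25 in aged C57BL/6 mice, and from 7.94 to 11.52 in young and 8.20 to 12.00 in aged CBA mice. Thalamic markers varied on the same arrays, with a list mean of 10.1 to 12.12 in BALB and 9.95 to 12.64 in CBA mice. This relation was examined after the values had been seen, in 6 relations of 2 genes in 3 cohorts, by permutation tests (two-sided). Arrays of all ages of a cohort were pooled and permuted together. In CBA mice Gabrd and the thalamic list had a Pearson r of 0.942 over 20 arrays (permutation p = 1e-05, the smallest that 100000 permutations can give, adjusted p = 6e-05) and a Spearman rho of 0.898, and r was 0.947 without the 2 arrays furthest from the median of the list. In BALB mice it was 0.640 over 18 arrays (permutation p = 0.00429, adjusted p = 0.00515), with a rho of 0.583 and 0.469 without those 2 arrays. For Gabra4 r was 0.732 in CBA (permutation p = 0.00035, adjusted p = 0.00105, rho 0.779, 0.687 without 2 arrays) and 0.739 in BALB mice (permutation p = 0.00059, adjusted p = 0.00118, rho 0.754, 0.704 without 2 arrays). Within the young and within the aged arrays, r for Gabrd was 0.988 and 0.961 in CBA and 0.703 and 0.456 in BALB mice. For Gabra4 these were 0.821 and 0.604 in CBA and 0.965 and 0.551 in BALB mice, not tested within ages. In C57BL/6 mice the list ran from 10.21 to 11.35 on young arrays and 11.27 to 12.42 on aged arrays, and no pooled r is given because the age groups fall apart in it and hold 5 arrays each. The higher Gabrd and Gabra4 values of aged C57BL/6 mice thus stood beside higher thalamic markers. Aged array 1, with the highest Gabrd value, was also high in cerebellar markers. The part of either list in these differences was not tested.

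**Figure D4:**
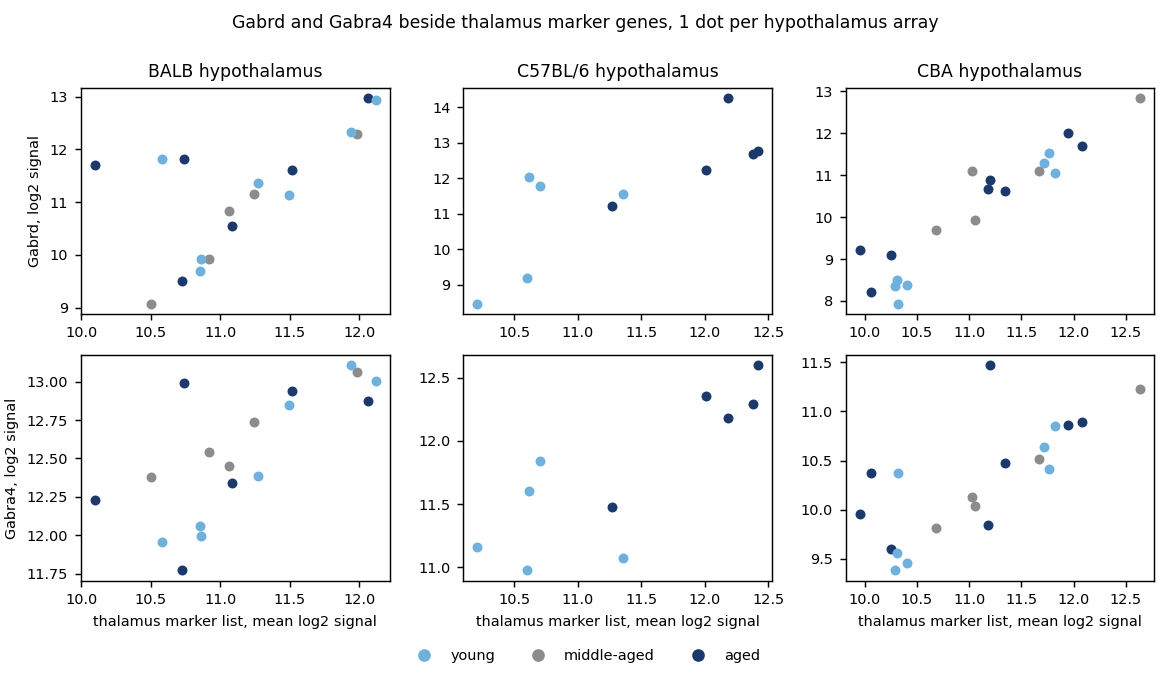
Log2 intensity of Gabrd and Gabra4 against the mean log2 intensity of a list of thalamic markers, each point a hypothalamus array, by cohort and age. In CBA mice the Gabrd points rise with the list (r = 0.942), and in C57BL/6 mice the aged arrays lie to the right of nearly all young arrays.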

How the data were processed

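RNA of whole brain tissue was hybridised in Cy3 to Agilent 44k arrays of 60-mer probes, in 7 cohorts. The deposited scanner files hold intensity values, the background-subtracted processed signal of Agilent Feature Extraction (9.1 in the submitters' processing notes, with versions in the file headers that differ by cohort), for 96 arrays of the 104 samples. A table of log2 values, deposited by the authors and made with limma, served as an alternative. Control spots and outlier spots were left out, spots of a probe averaged, and log2 processed signals quantile normalised within a cohort for age, and jointly for region, strain and interactions. A gene was tested at its brightest probe where the number of arrays on which it stood well above background reached the size of the smaller group. Comparisons used lmFit and eBayes of limma 3.58.1 in R 4.3.3 (prior proportion 0.01), with B above 0 as the call and Benjamini-Hochberg adjusted p-values. Where a probe was not well above background on any array of a group, the fold is taken with dim values raised to the array's lowest well-above-background signal. It bounds the effect of dim values only and does not include sampling error. The script was tested on simulated data. The number of arrays limits the precision. Gene names not given in some files came from the same probe in files of the same design. Genes were named where called and among the largest 3 of a family, or the largest 3 of a comparison with no call. The receptor genes and the lists of markers and partners were chosen with earlier results of these data known. Alternatives were normexp background correction (offset 50), 75th percentile scaling, normalisation within cohorts, other filters, the mean over probes, slide or replicate blocks, the deposited table and leaving out each array. Some receptor genes enter the counts but are not reported by name here.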

Additional observations from a re-analysis of the deposited data

Results flagged for a closer look

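A total of 173 pairs of a named receptor gene and a group of 4 to 10 arrays were examined. In 12 an array lay far from the rest of its group by Dixon's criterion. Chance meets it in about 1 pair of 20, but the pairs shared arrays and are not independent. Values are log2 intensities normalised within the cohort. C57BL/6 cerebellum young array 1, the lowest of its cohort in cerebellar markers, stood apart in 4 genes: Grin2c (13.40), Grik2 (9.59) and Chrnb2 (10.72), where it was lowest, and Grik3 (4.29), where it was highest. C57BL/6 hypothalamus aged array 1, which was high in cerebellar markers, was highest in Grin2c (14.78). Aged array 4 labelled BALB cerebellum was lowest in Grin2c (13.79), and young array 5 of that label was lowest in Grin2a (8.69). Aged array 5 of the frontal cortex was highest in Chrna10 (8.21) and Gabre (6.10). CBA hypothalamus aged array 8 was highest in Gabra3 (10.55), C57BL/6 hypothalamus young array 3 lowest in Gabra3 (10.57), and BALB hypothalamus young array 1 lowest in Grin2a (3.78).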

How the results depend on the processing

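Of 1273 values of the 153 named results under other settings, 1156 kept their direction and side of the threshold, 12 turned in sign and the rest lost the call. With an array left out, 1465 kept both, 131 lost the call and 1 gained it. Counts of called receptor genes moved as follows. With an adjusted p under 0.05 in place of B above 0, calls rose from 12 to 20 in arrays labelled BALB cerebellum with age, from 20 to 32 in young labelled striatum against hypothalamus, from 14 to 25 in young labelled cerebellum against hypothalamus, and from 9 to 20 and 10 to 28 between strains in young and aged mice. Slide as a fixed block gave 6 in the labelled cerebellum with age. Between strains, the mean over probes gave 5 and 6, and normalisation within cohorts 19 and 19. Leaving out 1 array at a time gave counts of 24 to 28 and 23 to 25 in young and aged C57BL/6 regions, 18 to 23 in aged labelled cerebellum, 14 to 20 in young labelled striatum and 10 to 14 in young labelled cerebellum against hypothalamus, 9 to 13 in labelled cerebellum with age, 8 to 13 and 8 to 14 between strains, 0 to 2 in C57BL/6 cerebellum at middle age (2 without middle-aged array 1), 0 to 1 in C57BL/6 hypothalamus with age (1 without aged array 3), and 0 in the other age and interaction comparisons. Signs turned for Glra2 in aged C57BL/6 cerebellum (0.27) and Chrna10 in frontal cortex (0.0574) in the deposited table, for Chrna5 (-0.0127), Chrnb3 (-0.97) and Grin2b (-0.74) in labelled striatum with slide as a fixed block, for Grin1 in young labelled cerebellum (0.0454) and Gabra3 between strains (-0.0176 and -0.0562) with normalisation within cohorts, and for Gria4 (-0.85), Grik1 (0.14) and Gria1 (0.0777 and 0.0441) between strains with the mean over probes. The causes were not tested. Same-numbered arrays were not paired by the labels. A replicate block gave 25 and 23 calls in the C57BL/6 regions, 20, 16 and 10 in the BALB ones, 9 in labelled cerebellum with age, 9 and 9 between strains, and 0 elsewhere. Normexp on the spot mean was not run where files hold no spot mean (the spot median was used instead, chosen after seeing the data), nor slide as a fixed block where it could not be estimated. Without aged array 3 labelled striatum, 0 genes were called with age there.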
